A study of Polistes metricus with 16 samples.

Results

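Gene expression was compared in the heads of 8 field larvae of the paper wasp Polistes metricus, 4 worker-reared and 4 foundress-reared, out of the 16 larvae of the series. All were single females in the 5th and last larval instar, and the members were taken from their labels alone, without reference to any measured value. Worker-reared larvae, which are on the path to becoming queens, came from nests at an Iowa field site in the late summer of 2010. Foundress-reared larvae, which are on the path to becoming workers, came from nests at that site in the late spring of the same year. The other 8 larvae came from North Carolina nests kept in a laboratory in 2009 and given prey every 3 days (4 restricted larvae) or every 1 day (4 ad libitum larvae). They entered the fit so that all 4 groups shared an estimate of spread, and they are described only where they bear on the field larvae. Season ran with rearing caste in the field larvae, so that they cannot be told apart. The labels do not say which larvae came from the same nest, and p-values therefore measure the spread between these larvae.

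Paper wasps found their colonies in spring. The foundress feeds the first larvae herself, and those daughters emerge as workers. Workers feed the later larvae, some of which become the next season's foundresses. Queens and workers of paper wasps look alike, and the caste bias laid down during larval life is seen mainly in physiology, such as stored nutrients and reproductive state. The larval head holds brain, muscle, cuticle and glandular tissue together. In such whole-head samples a change in the number of cells of a type and a change in RNA per cell cannot be told apart. The deposited identifiers come without gene names, so that transcripts are given by identifier, the labelled tissue could not be checked against marker genes, and no sequence is shown.

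Library totals ran from 30084017 to 37626473 counts in worker-reared larvae and from 28359372 to 32569316 counts in foundress-reared larvae. The 10 most abundant transcripts of a library took 7.59% to 10.2% of its counts in worker-reared larvae and 10% to 32.1% in foundress-reared larvae, where the lowest share was that of replicate 3 and the highest that of replicate 4. The TMM factor, which corrects a library total for such unevenness, ran from 1.03 to 1.35 in worker-reared larvae and was 0.65, 0.84, 1.2 and 0.695 in foundress-reared replicates 1 to 4. Transcripts with a count numbered 58758 ± 1326 in worker-reared and 54891 ± 2086 in foundress-reared larvae (SD, n = 4 each; two-sided exact permutation p = 0.0571). The exact p was 0.0857 for the top share, 0.114 for the TMM factor and 0.171 for the total. The smallest p that 8 larvae allow is 0.0286. After adjustment over the 4 measures (adjusted p from 0.152), a single measure could not have passed 0.05 on its own, whatever its values. The adjusted p therefore cannot decide whether a single measure differed.

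Of 36337 transcripts tested, 16 (0.044%) were called at an adjusted p under 0.05 in edgeR's quasi-likelihood test, 9 higher (0.0248%) and 7 lower (0.0193%) in worker-reared larvae. They covered a wide span of levels, from 0.289 to 37.3 CPM (counts scaled to a common library size) as a mean over the 8 field larvae, and none of them stood in the most abundant decile of the tested transcripts. The 9 higher transcripts differed by a median of 2.47-fold (1.68-fold to 10.6-fold), and 5 of the 9 lay above 10 CPM. The 7 lower transcripts differed by a median of 3.44-fold (1.7-fold to 96.7-fold), and 2 of the 7 lay above 10 CPM.

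**Figure D1:**
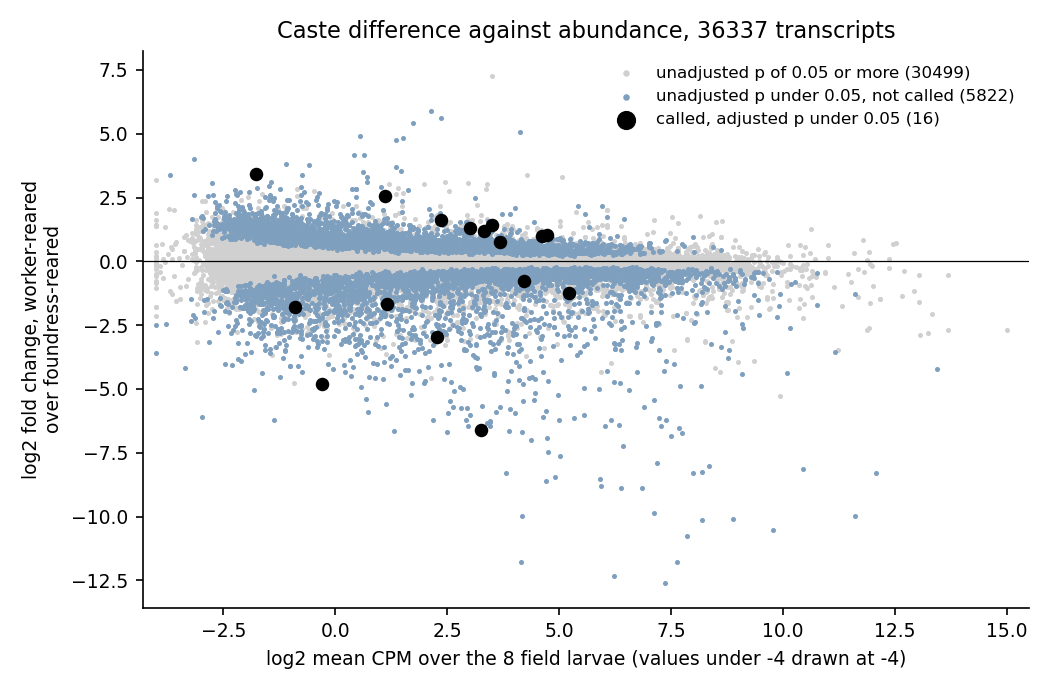
Log2 fold change of worker-reared over foundress-reared larvae against the log2 mean level over the 8 field larvae, for 36337 tested transcripts (grey, unadjusted p of 0.05 or more; blue, unadjusted p under 0.05; black, the 16 called). Larger negative than positive fold changes are seen among the blue points, while 11 of the 16 called transcripts lie in deciles 7 to 9 of the tested levels.

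The most abundant transcript called higher was PmetTSAr1.1-006111. It measured 36.4, 33.7, 36.8 and 35.5 CPM in worker-reared replicates 1 to 4, against 16.3, 19.98, 16.2 and 17.7 CPM in foundress-reared replicates 1 to 4. Each group was tight, and the lowest worker-reared larva stood 1.69-fold above the highest foundress-reared larva. The group means were 35.6 ± 1.37 and 17.5 ± 1.76 CPM (SD, n = 4 each), which corresponds to 1.02 ± 0.166 on the log2 scale (fold change ± SE, edgeR adjusted p = 0.0452). In the 8 laboratory larvae it ran from 17.5 to 34.3 CPM, which spans the gap between the field groups.

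The largest fitted rise was that of a rare transcript, PmetTSAr1.1-043117. Worker-reared replicates 1 to 4 had 13, 26, 30 and 17 counts of it, against 1, 1, 3 and 0 counts in foundress-reared replicates 1 to 4. The levels were 0.535 ± 0.14 CPM in worker-reared and 0.0435 ± 0.0365 CPM in foundress-reared larvae, 3.41 ± 0.54 apart on the log2 scale (fold change ± SE, edgeR adjusted p = 0.0449). The groups did not overlap, but the foundress-reared level rests on 1 to 3 counts in each of 3 larvae, and the fitted fold is correspondingly imprecise. All 8 laboratory larvae had more of it than any foundress-reared larva, at 0.148 to 0.475 CPM.

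PmetTSAr1.1-004133 was the most abundant transcript called lower. It measured 26.8, 23.4, 19.4 and 18.4 CPM in worker-reared replicates 1 to 4, against 47.6, 54.1, 54.1 and 54.5 CPM in foundress-reared replicates 1 to 4. The foundress-reared larvae other than replicate 1 were almost equal, and the groups were 1.77-fold apart at their nearest larvae. The log2 fold change was -1.26 (SE 0.15, edgeR adjusted p = 0.0087).

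The largest fitted fall was that of PmetTSAr1.1-005244. Its counts were 3, 9, 2 and 15 in worker-reared replicates 1 to 4, and 1131, 317, 82 and 121 in foundress-reared replicates 1 to 4. Levels were 0.0859, 0.233, 0.0418 and 0.413 CPM in worker-reared larvae, against 55.5, 11.6, 2.42 and 5.5 CPM in foundress-reared larvae. The foundress-reared larvae differed from each other by 22.9-fold, with replicate 1 highest and replicate 3 lowest, and the highest worker-reared larva stood 5.86-fold below the lowest of them. The log2 fold change was -6.6 (SE 1.05, edgeR adjusted p = 0.0452). Laboratory larvae of both diets were near the worker-reared level, at 0.0297 to 0.548 CPM.

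The CPM of the groups did not overlap for any of the 16 called transcripts, which the same contrast selected, against 9.41% without overlap among all tested transcripts. The ratio between the nearest larvae of the 2 groups ran from 1.43 to 4.21 among the 9 higher and from 1.37 to 5.86 among the 7 lower. A pair of the higher transcripts carried identifiers 2 numbers apart, and their levels less the group means correlated at 0.931 over the 16 libraries, against 0.749 at most among the other pairs of called transcripts. These may be forms of 1 gene, so that 16 transcripts need not be 16 genes. In 1 of the 16, PmetTSAr1.1-005244, a single larva held over 50% of the summed CPM of the group with the higher level.

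**Figure D2:**
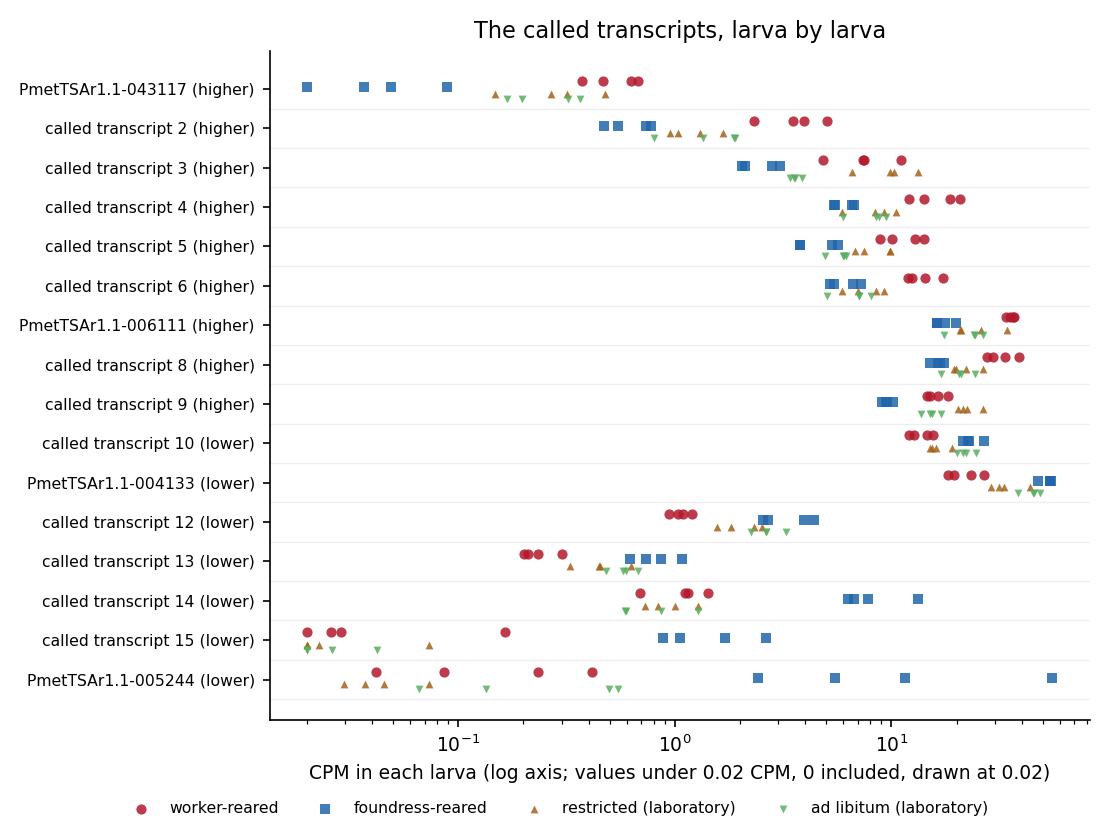
CPM of the 16 called transcripts in each larva on a log axis, ordered by fold change from the most raised to the most lowered (red circles, worker-reared; blue squares, foundress-reared; triangles, laboratory larvae; values under 0.02 CPM are drawn at 0.02). The red and blue points do not overlap in any line, and in the bottom 3 lines the laboratory larvae lie near the worker-reared larvae.

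The laboratory larvae did not take part in the contrast, although they shared the estimate of spread. For 3 of the 7 lower transcripts all 8 laboratory larvae were nearer, in log2 CPM, to the worker-reared than to the foundress-reared mean, so that the foundress-reared larvae alone stood apart in level. For 1 of the 9 higher transcripts all 8 laboratory larvae were nearer to the worker-reared mean. The reverse, all 8 nearer to the foundress-reared mean, was seen for 0 of the 16. Of 36 readings of the higher transcripts in each diet group, 20 were nearer to the worker-reared mean in restricted larvae and 11 in ad libitum larvae. Of 28 readings of the lower transcripts, these numbers were 21 and 12. Over all tested transcripts the share was 53.5% in restricted (47.9% to 61.3% by larva) and 51.8% in ad libitum larvae (37% to 62%). A reading is 1 transcript in 1 larva, so that readings of the same larva or transcript are not independent. The difference between the diets was not tested.

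The number of calls depended on which libraries were fitted. With the 8 field libraries alone, 0 of 32325 transcripts were called by edgeR (smallest adjusted p = 0.105), while 5228 had an unadjusted p under 0.05. The 16 kept their direction in that fit, 15 of them ranked among the 100 smallest p-values, and their adjusted p ran from 0.105 to 0.168. DESeq2 on all 16 libraries called 979 (405 higher and 574 lower), which included the 16, and limma voom called 4, all among the 16. Of the 979, which the same contrast selected, 762 (77.8%) had CPM without overlap between the groups, against 9.41% of all tested transcripts. Removal of a single field larva left 9, 3, 4 and 8 calls without worker-reared replicates 1 to 4, and 24, 1, 46 and 4 calls without foundress-reared replicates 1 to 4. The removal of a laboratory larva also moved the count, to 17, 4, 25 and 26 without restricted replicates 1 to 4 and to 4, 3, 33 and 6 without ad libitum replicates 1 to 4. In these 16 fits with a larva left out, and in the fit of the 8 field libraries, all 16 transcripts kept their sign. Each also kept an unadjusted p under 0.05. The 16 were selected in these same larvae, so that their sign, rank and p in such refits give no independent support.

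Most differences at an unadjusted p under 0.05, the 16 called included, were modest in size. An unadjusted p under 0.05 was found for 5838 transcripts (16.1%), 2695 higher (7.42%) and 3143 lower (8.65%) in worker-reared larvae. About 1817 would be expected to reach it if no transcript differed. Transcripts read in the same larvae are not independent, so that this number could vary widely, and the excess was not tested. Among the 5838, 28.3% differed by less than 1.5-fold, 32.6% by 1.5-fold to 2-fold, 27.2% by 2-fold to 4-fold and 11.8% by 4-fold or more. Their median was 1.78-fold, against 1.25-fold over all 36337 transcripts, from which they were selected by p. At an adjusted p under 0.1 there were 197 (0.542%), 109 higher and 88 lower, with a median of 2.65-fold and levels from 0.111 to 209 CPM. In 187 of these 197, which the same contrast selected, the groups did not overlap, against 9.41% of all tested transcripts.

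Among large fitted differences, most of those lower in worker-reared larvae were not shared by all larvae of a group. Of the 591 transcripts lower by 4-fold or more at an unadjusted p under 0.05, 119 (20.1%) had groups without overlap, and of the 100 higher by 4-fold or more, 48 (48%) did. Of all 5838 transcripts with such a p, which the same contrast selected, 2613 did, against 9.41% of all tested transcripts. In 472 of the 591 (79.9%) a single foundress-reared larva held over 50% of the group's summed CPM. That larva was replicate 1 in 296, replicate 4 in 154, replicate 2 in 13 and replicate 3 in 9. In 33 of the 100 higher transcripts a single worker-reared larva held over 50%, spread over replicates 1 to 4 as 4, 13, 6 and 10. Over all tested transcripts such dominance was found in 5.79% of those higher and 14.6% of those lower in worker-reared larvae. An extreme case was fitted at a log2 fold change of -12.6 (edgeR adjusted p = 0.189) with 0, 0, 5 and 3 counts in worker-reared larvae, against 1, 8, 0 and 28767 counts in foundress-reared larvae. Without foundress-reared replicate 1 the number lower by 4-fold or more was 384, and without foundress-reared replicate 4 it was 579. With 1 field larva left out it ran from 384 to 837. The number higher by 4-fold or more was 219, 173 and 152 without foundress-reared replicates 3, 1 and 2. It was 159 without worker-reared replicate 1, and 109 to 135 without the other 4 field larvae. Without a laboratory larva, which is outside the contrast, there were 115 to 129 higher and 603 to 656 lower. Each fit with 1 library left out also tested more transcripts, 37128 to 37574 against 36337. Other filters, tests and scalings gave 260 (limma voom) to 1673 (no filter) lower and 35 (at least 1 CPM in 4 libraries) to 1004 (no filter) higher by 4-fold or more.

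**Figure D3:**
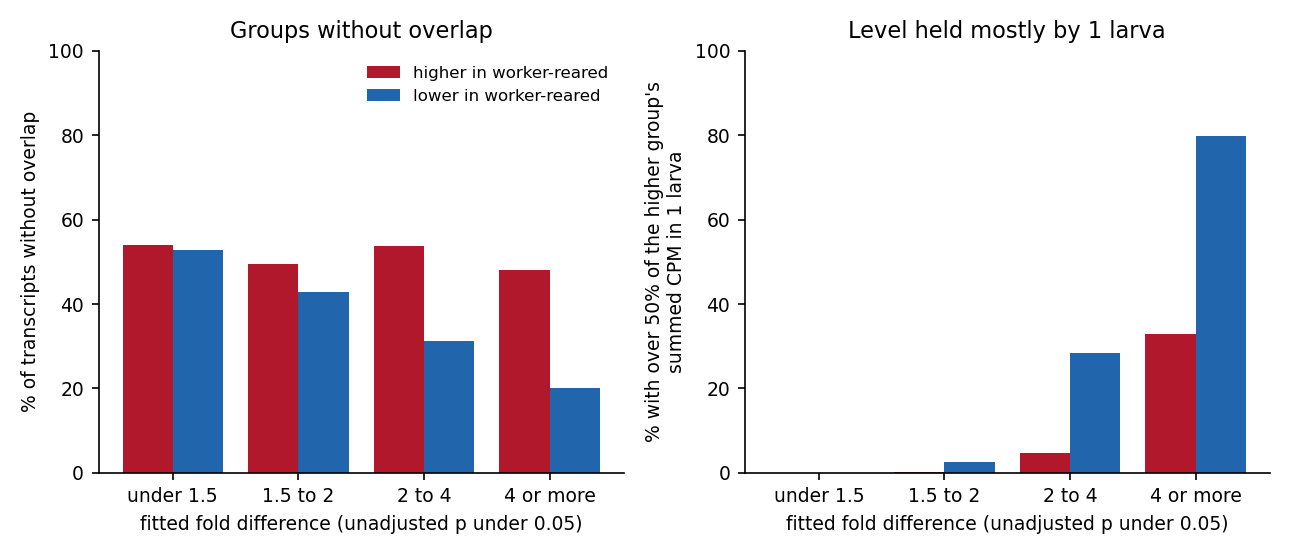
Transcripts with an unadjusted p under 0.05, by size of the fitted difference (red, higher in worker-reared; blue, lower in worker-reared). The left panel gives the percent whose CPM does not overlap between the groups, and the right panel the percent in which 1 larva holds over 50% of the higher group's summed CPM, which reaches 79.9% among transcripts lower by 4-fold or more.

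The direction of the differences changed with abundance. In the least abundant decile of tested transcripts (up to 0.304 CPM), 397 had an unadjusted p under 0.05 and 67.5% of these were higher in worker-reared larvae. In the fifth decile the share was 56%, in the eighth 42.3%, and in the most abundant decile (50.3 CPM and above) 17.9%, or 130 higher and 596 lower of 726. The share of transcripts with such a p grew along the same scale, 10.9% in the lowest and 20% in the highest decile. Their median size was 2.75-fold in the lowest, 1.42-fold in the ninth and 1.49-fold in the highest decile. Over all tested transcripts it was 1.4-fold, 1.16-fold and 1.19-fold. Spread between larvae was also larger in the lowest than in the ninth decile, and its part in these sizes was not tested. The median SD of log2 CPM was 0.525 in worker-reared and 0.626 in foundress-reared larvae in the lowest decile. In the ninth it was 0.21 and 0.238. The tendency of abundant transcripts to be lower depended on the scaling: the share higher in the most abundant decile was 16.1% with RLE factors, 31.5% with upper-quartile factors and 84.8% with library totals alone. Library totals alone moved the median log2 fold change of all tested transcripts to 0.44, against 0.00074 with TMM, and 90.7% of the 7314 transcripts with a p under 0.05 were then higher, against 46.2% with TMM and 57.8% with upper-quartile factors. Without foundress-reared replicate 1 the share in the most abundant decile was 31%, and without any other single library it ran from 14.7% to 22.4%. The larger top shares and lower TMM factors of foundress-reared replicates 1, 2 and 4, given above, go with this pattern, and their part in it was not tested.

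**Figure D4:**
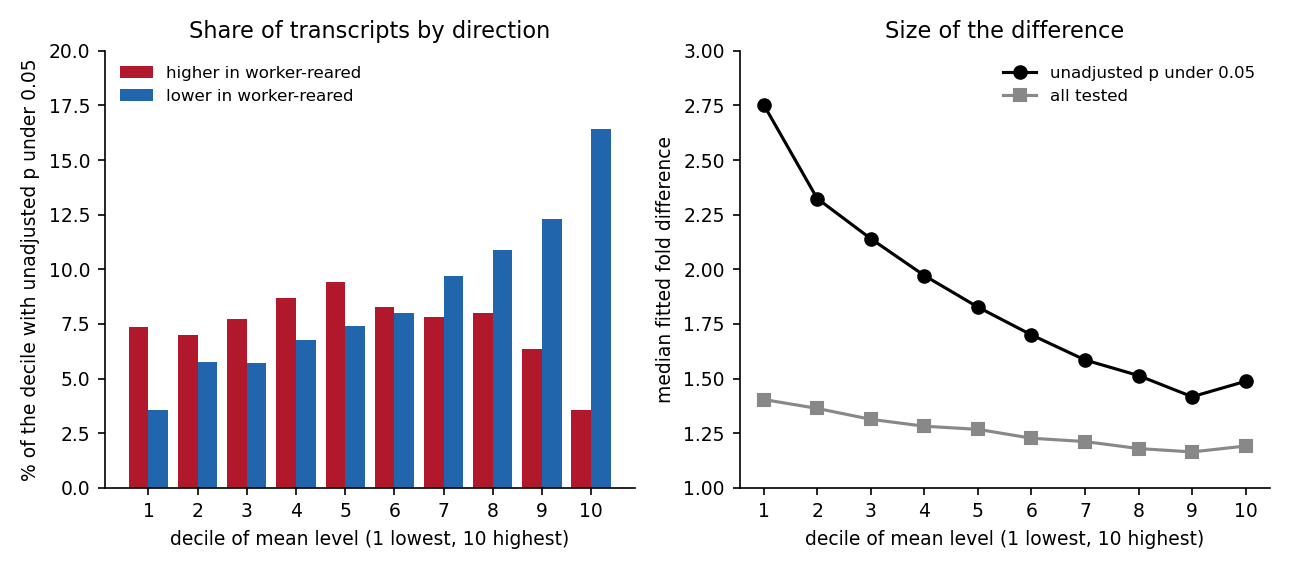
Differences by decile of mean level over the 8 field larvae, from 1 (lowest) to 10 (highest). The left panel gives the percent of each decile with an unadjusted p under 0.05, by direction (red, higher in worker-reared; blue, lower), and the right panel the median fitted fold difference of those transcripts (black) and of all tested (grey), with TMM scaling; blue exceeds red from the seventh decile on.

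CPM did not overlap between the 4 worker-reared and 4 foundress-reared larvae for 3419 transcripts (9.41%), 1821 higher (5.01%) and 1598 lower (4.4%). Their median difference was 1.58-fold, and 2613 of them also had an unadjusted p under 0.05. With library totals alone 95.7% of the transcripts without overlap were higher, and with upper-quartile factors 64.8%, against 53.3% with TMM. The remaining 3225 of the 5838 transcripts with a p under 0.05 had at least 1 larva within the range of the other group. Of 74517 transcripts in the table, 5147 had 0 counts in all worker-reared larvae and 7632 in all foundress-reared larvae, including 2754 at 0 in all 8. Absence from a group together with a count in every larva of the other was found for 43 transcripts at 0 in worker-reared larvae and 198 at 0 in foundress-reared larvae. In none of these did each larva of the other group reach 10 counts, and none passed the filter on low counts. Zeros were read in unscaled counts. Over a whole group, 3 counts equal 0.019 CPM in worker-reared and 0.029 CPM in foundress-reared larvae. A rare transcript is thus more readily missed in foundress-reared larvae, and how far this accounts for their larger numbers was not tested.

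The larvae differed in how well they kept to their group. Separation between the groups was broken by foundress-reared replicate 3 alone for 3606 of the 36337 tested transcripts, which were without overlap once it was left out. The corresponding numbers were 1646, 2054, 922 and 724 for worker-reared replicates 1 to 4, and 2109, 746 and 712 for foundress-reared replicates 1, 2 and 4. Fewer larvae are easier to separate, so that some such transcripts arise whichever larva is left out. Among the 3419 transcripts that were separated, foundress-reared replicate 3 was the foundress-reared larva nearest to the other group in 39.4%, and worker-reared replicate 1 was the nearest worker-reared larva in 39.3%.

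A left-out larva was then read in transcripts that had been ranked without it. For each field larva the 200 best-ranked transcripts of each direction were taken, by p, from a fit of the other 15 libraries, and a transcript was counted for the group whose mean log2 CPM was nearer. Worker-reared replicates 1 to 4 were placed with their own group by 62.25%, 73.5%, 85.25% and 87.25% of these 400 transcripts. Foundress-reared replicates 2 and 4 were placed with theirs by 77.5% and 77.25%, but replicates 1 and 3 by 46.75% and 42.25%. Over all transcripts tested in the same fits the shares were 49.6% to 62.3% in worker-reared larvae, and 54.6%, 63.5%, 41.2% and 59.3% in foundress-reared replicates 1 to 4. Placement was thus above this background for 7 of the 8 larvae, by 1.08 percentage points for foundress-reared replicate 3 and by 5.03 or more for the other 6, and below it for foundress-reared replicate 1. When the ranking used the 7 remaining field libraries, foundress-reared replicate 3 was placed with its own group by 35%, under its background of 41%, and replicate 1 by 55.5%, against a background of 55.2%. With 50 transcripts in each direction, ranked in the 15 libraries, replicate 3 was placed by 55% and replicate 1 by 48%, and with 500 in each direction by 39.6% and 52.4%. Which of them lay under 50% thus depended on the ranking and its length. Against the backgrounds given above for the 15 libraries, foundress-reared replicate 1 lay under 54.6% at each length. Foundress-reared replicate 3 lay above 41.2% with 50 and 200 transcripts in each direction and under 41.2% with 500.

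**Figure D5:**
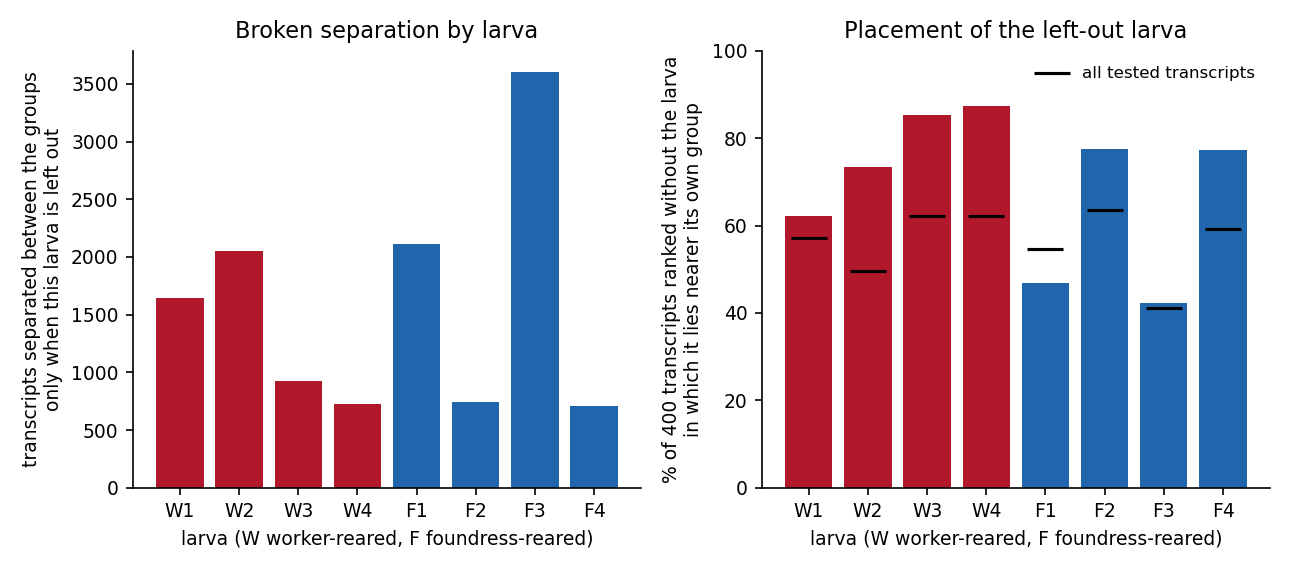
The 8 field larvae (W, worker-reared replicates 1 to 4, red; F, foundress-reared replicates 1 to 4, blue). The left panel counts transcripts whose groups are separated only when that larva is left out, highest for F3 at 3606, and the right panel gives the percent of 400 transcripts, ranked without the larva, in which it lies nearer to its own group, with black marks for all tested transcripts; F1 and F3 are under 50%.

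Each larva was also read in the transcripts called without it, which were few, and the 2 readings differed for some larvae. Of the 46 transcripts called without foundress-reared replicate 3 (16 higher and 30 lower), that larva lay nearer to its own group in 28, and of the 24 called without foundress-reared replicate 1 (8 higher and 16 lower), that larva did so in 11. Without worker-reared replicate 1 it was 7 of 9, without worker-reared replicate 4 it was 4 of 8, and without each of the other 4 larvae all 1 to 4 called transcripts placed the larva with its own group. Over all transcripts tested in the same fits, the share was 41.2% and 54.6% for foundress-reared replicates 3 and 1. It was 57.2% and 62.1% for worker-reared replicates 1 and 4, and 49.6% to 63.5% for the other 4 larvae. In all, 14 of the 46 and 9 of the 24 were among the 16 called with all libraries.

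Whole profiles crossed the group line as well. Over the tested transcripts the pair of field larvae with the highest rank correlation was worker-reared replicate 1 with foundress-reared replicate 3 (Spearman 0.968, across transcripts), and the pair with the lowest was worker-reared replicate 3 with foundress-reared replicate 1 (0.848). The median correlation was 0.946 over the 6 worker-reared pairs, 0.939 over the 6 foundress-reared pairs and 0.932 over the 16 pairs between groups. The first principal component of the 8 larvae was taken from the 500 transcripts that varied most and held 52.5% of their variance. Between the groups lay 16.5% of the component's own variance (two-sided exact permutation test over 70 assignments, p = 0.371, adjusted p = 0.4). Worker-reared replicates 1 to 4 scored 29.4, -20.2, 69.4 and -5.7 on it, and foundress-reared replicates 1 to 4 scored -89.9, -23.7, 36.3 and 4.41. The groups thus overlapped, with worker-reared replicate 3 and foundress-reared replicate 1 at the ends. Components 2 and 3 had 14.3% and 29.6% of their variance between the groups (exact permutation p = 0.4 and 0.171, adjusted p = 0.4 each). With a smallest possible exact p of 0.0286, a single component could not have passed 0.05 on its own after this adjustment.

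Spread within a group was larger in foundress-reared larvae for 58% of all tested transcripts, 63.1% of those with an unadjusted p under 0.05 and 7 of the 16 called. The median standard deviation of log2 CPM over transcripts was 0.337 among worker-reared and 0.41 among foundress-reared larvae. In the laboratory it was 0.454 with restricted and 0.344 with ad libitum food.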

How the data were processed

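Messenger RNA from 16 single larval heads was extracted with RNeasy columns and made into Illumina TruSeq libraries, per the labels' protocols. The deposited file is 1 table of whole-number counts for 74517 assembled transcripts, each larva having a column. The authors used Bowtie2 and eXpress, per the submitters' processing notes, which list no versions. How the assembly was made, whether strand was used and which filters were set is not given in the sources used here. Whether a read shared by similar transcripts was counted for each is not stated either.

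Transcripts were filtered with filterByExpr by group, which left 36337 (48.8%) with 99.7% of the counts. Differences were tested with edgeR 4.0.16 (R 4.3.3) using TMM factors, the robust quasi-likelihood F test, 1 mean for each of the 4 groups over 16 libraries (12 residual degrees of freedom) and Benjamini-Hochberg adjustment over all tested transcripts. A standard error is the size of the log2 fold change over the root of F. CPM are scaled to TMM-adjusted totals, and log2 CPM use a prior count of 2. Two-sided exact permutation tests ran over 70 assignments, whose smallest possible p is 0.0286. DESeq2 1.42.0 and limma 3.58.1 (voom) were alternatives. The functions were tested on simulated data. The labels give no replicate numbers, and those used follow the order of the records. In no pair of field larvae did the counts agree within sampling noise (chi-square per degree of freedom at least 50). The comparison, tests and lists were chosen with earlier results of these data known. The transcripts named are, in each direction, the called one with the highest mean CPM over the field larvae and the called one with the largest fold change.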

Additional observations from a re-analysis of the deposited data

Results flagged for a closer look

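Of 20 sets of 4 values, 1 held a value apart from the rest, and about 1 such set arises by chance. It was the level of PmetTSAr1.1-004133 among foundress-reared larvae, where replicate 1 had 47.57 CPM and the remaining larvae had between 54.08 and 54.49 CPM.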

How the results depend on the processing

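The 16 calls became 979 with DESeq2, 4 with limma voom, 0 with the 8 field libraries alone and 5 with library totals alone, a setting added after seeing the data. The cause was not tested. They were 15 to 20 under the other 5 settings of scaling and filtering, and 1 to 46 when 1 library was left out. The number with an unadjusted p under 0.05 was 4505 to 7999 under the 9 changes of scaling, filter, test or libraries, and 4295 to 7073 with 1 library left out. Transcripts without overlap numbered 4131 to 7025 with 1 field larva left out. Such a removal can only raise the number from 3419, because the CPM were not rescaled. The share higher in the most abundant decile reversed to 84.8% with library totals alone. The first component gave an exact permutation p of 0.143 to 0.8 over 11 other settings, and the median held-out placement was 73.5% to 80% over 3, against 75.4%. PmetTSAr1.1-004133 lost its call in 3 of 25 settings (adjusted p up to 0.166), PmetTSAr1.1-006111 in 15 of 25 (up to 0.144), PmetTSAr1.1-043117 in 14 of 24 (up to 0.168) and PmetTSAr1.1-005244 in 16 of 25 (up to 0.168), and each kept its sign in all of them. These settings refit the larvae in which the named transcripts were selected, so that a kept sign gives no independent support. No paired analysis was possible because the labels give no replicate numbers and nothing ties a worker-reared larva to a foundress-reared one. With 4 larvae a group, differences of the rarest transcripts rest on few counts, as for PmetTSAr1.1-043117.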
